A study of Mus musculus with 19 samples.

Results

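Genes of glycolysis, glucose transport and the pentose phosphate pathway were followed in blood progenitors across 4 sorted populations of C57BL/6 mice. The set holds 32 genes, chosen by name from the 25124 genes of the deposited exon count table: 2 glucose transporters, 3 hexokinases, 9 genes of upper and 7 of lower glycolysis, 6 of lactate and pyruvate handling, 4 of the pentose phosphate pathway and the regulator Hif1a. Fetal cells came from the liver at E14.5 (embryonic day) and adult cells from the bone marrow at 12 weeks. HSC (hematopoietic stem cells) were sorted as c-Kit+ Sca-1+ CD150+ cells lacking CD48 and Flt3, and LMPP (lymphoid-primed multipotent progenitors) as c-Kit+ Sca-1+ CD48+ Flt3+ cells lacking CD150. All gates left out CD3+, Gr1+, B220+ and Ter119+ cells, and the adult gates alone also list CD11b as a marker to leave out. Age, organ and this gate thus change together and cannot be told apart. An age effect, age call or age group below stands for all of them. RNA-seq covered 2 libraries of fetal HSC, 3 of adult HSC, 3 of fetal LMPP and 3 of adult LMPP, which the submitters call biological replicates. No treatment or transgene is given for any group, and the labels do not say how many animals made each library. The series' title names developmental cues and emergency megakaryopoiesis, the fast making of platelet precursors.

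Glycolysis splits glucose into pyruvate and yields ATP without oxygen. Glucose enters through carriers, hexokinase traps it as glucose 6-phosphate, and the product can run down to pyruvate and lactate or be turned into NADPH and ribose by the pentose phosphate pathway. Adult HSC are known to be largely quiescent and to lean on glycolysis in their low-oxygen niche, where HIF-1 drives transcription of many of these genes, whereas HSC of the fetal liver divide actively.

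Each library held between 19.8 and 64.8 M counts. The upper limit behind a count of 0 is 3 counts, worth 0.0498 to 0.152 CPM (counts per M of each library's total after TMM scaling), and it covers counting error only. Sorting markers went with the labels: Slamf1, which encodes CD150, averaged 54.8 CPM in fetal HSC and 70.9 CPM in adult HSC, against 0.241 CPM in fetal LMPP and 0.481 CPM in adult LMPP. Flt3 averaged 492 CPM in fetal LMPP and 974 CPM in adult LMPP, against 29.0 CPM in fetal HSC and 13.4 CPM in adult HSC. Dntt, a lymphoid gene of adult LMPP, was at 0 in all fetal LMPP libraries and averaged 1348 CPM in adult LMPP. Adult HSC 3, fetal LMPP 1 and adult LMPP 3 stood apart from the other libraries on principal component 3 (10.4% of the variance), and took 12.8% to 14.6% of their counts from genes longer than 4000 bases, against 18.4% to 22.9% in the other 8. For this reason each count of calls is repeated with them left out, a choice made after seeing the data.

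Together the 32 genes took 1.30% to 1.39% of all counts in fetal LMPP and 0.787% to 0.871% in adult LMPP. In HSC the share was 1.05% to 1.10% in fetal and 0.890% to 0.950% in adult libraries. In both cell types the lowest fetal library lay above the highest adult one. All 32 passed the filter on low counts, which kept 14720 genes. The map of all 32 genes shows the fetal LMPP block as the one with most genes above their own mean, and Hk3, Aldoc and Eno2 as the genes with the widest swings.

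**Figure D1:**
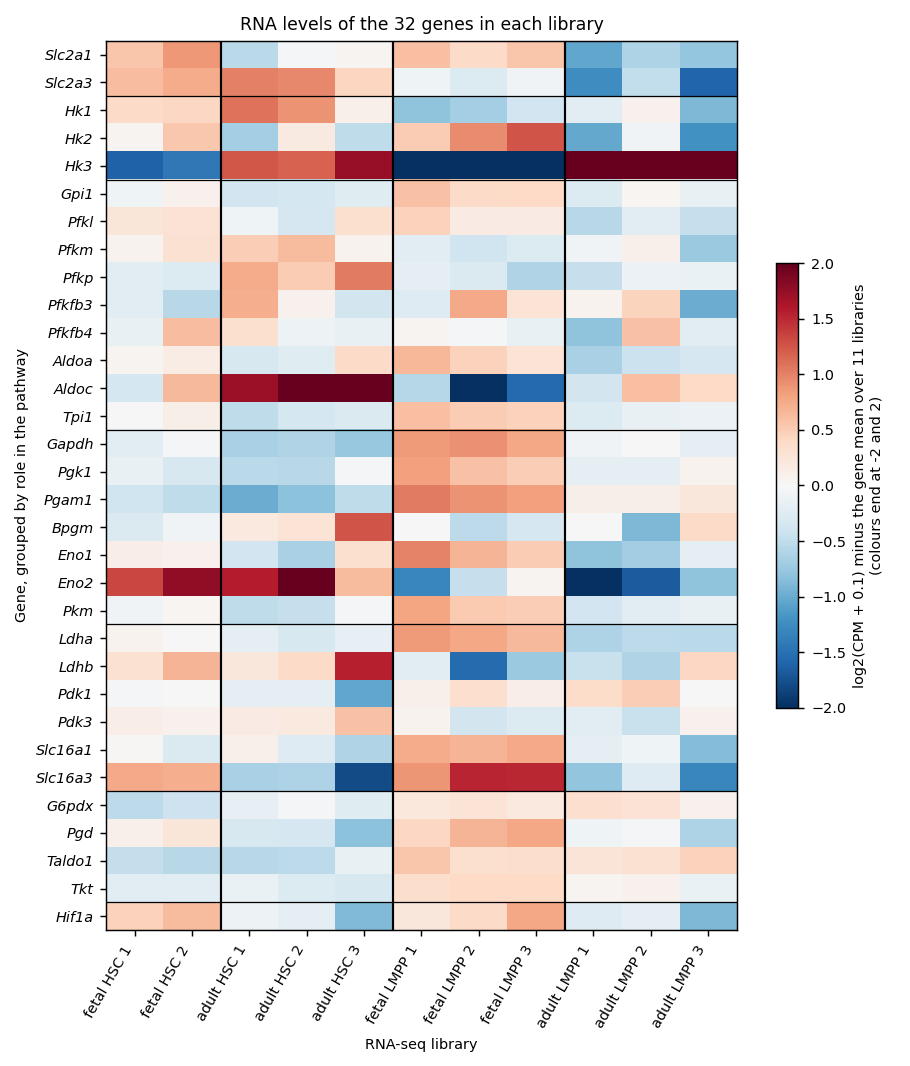
RNA level of each of the 32 genes (rows, grouped by role) in each of the 11 RNA-seq libraries (columns, grouped by population), as log2(CPM + 0.1) minus the gene's mean over all libraries, with colours ending at -2 and 2. Hk3 runs from 0.148 CPM in fetal LMPP 2 to 113 CPM in adult LMPP 1.

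Fetal LMPP held more RNA of most steps from glucose uptake to lactate export than adult LMPP. By edgeR's quasi-likelihood test, with Benjamini-Hochberg adjustment over all genes, 18 of the 32 genes were called higher in fetal LMPP and 1 lower, at an adjusted p under 0.05. Of all genes tested, 7.08% were called higher and 8.29% lower in this comparison. The median log2 fold change was 0.692 for the set and 0 for all genes. Libraries of fetal and adult LMPP did not overlap for 18 genes that were higher and 2 that were lower in fetal LMPP, against 17.8% and 16.9% of all genes. With the 3 libraries that stand apart left out, 18 were called higher and 3 lower, and all 18 were the same genes. Leaving out adult LMPP 1 alone lowered the number called higher to 11. With library totals in place of TMM the calls of Slc2a3, Pgd, Tkt and Hif1a ended (adjusted p = 0.0587 to 0.169), and with only the LMPP groups fitted those of Slc2a3 and Tkt (adjusted p = 0.0845 and 0.0931).

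Markers of other cells moved with these differences in LMPP. Summed RNA of 12 erythroblast markers was 176 to 536 CPM in fetal LMPP and 32.3 to 68.9 CPM in adult LMPP. The globin genes Hbb-bt, Hbb-bs and Hbb-b1 were called higher, while Slc4a1 and Epb42 were at 0 in both groups. Summed RNA of 8 hepatocyte markers was 11.6 to 57.9 CPM in fetal LMPP and 11.8 to 16 CPM in adult LMPP, with 4 of them at 0 in adult LMPP, and Alb and Apoa1 were called higher. Summed RNA of 6 T and NK cell markers was 38.6 to 52.2 CPM in fetal LMPP and 258 to 366 CPM in adult LMPP, nearly all of it Nkg7, which was called lower, and Cd3e and Ncr1 were at 0 in both groups. The part of such cells in the LMPP differences was not tested. In such bulk samples fewer cells of a type and less RNA per cell cannot be told apart.

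Few of the genes were called between fetal and adult HSC. In fetal HSC, 3 genes were called higher (Slc2a1, Gapdh and Slc16a3) and 2 lower (Hk3 and Pfkp), where 2.07% of all genes were called higher and 2.89% lower. The median log2 fold change of the set was 0.129, against 0 for all genes. Fetal and adult HSC libraries did not overlap for 9 genes that were higher and 6 that were lower in fetal HSC, against 20.8% and 20.3% of all genes. With the 3 libraries that stand apart left out, which leaves 2 libraries of each HSC group, 11 genes were called higher and 4 lower: Pfkl, Aldoa, Tpi1, Pgam1, Eno1, Pkm, Pgd and Hif1a joined the first list and Hk1 and G6pdx the second. All 5 calls ended when fetal HSC 1 or fetal HSC 2 was left out, with adjusted p of 0.096 to 0.22 and 0.131 to 0.358, and all but that of Hk3 ended when the HSC libraries were fitted alone (adjusted p = 0.0662 to 0.151). Summed RNA of 12 erythroblast markers was 1260 to 1400 CPM in fetal HSC and 65.4 to 167 CPM in adult HSC, with 0 and 1 of the markers (Slc4a1) at 0. Most of the fetal sum was Hbb-bt, Hbb-bs and Hbb-b1, which averaged 633, 314 and 309.5 CPM in fetal HSC and were called higher. The means of 8 of the 12 markers were higher in fetal HSC and those of 4 lower (Epb42, Hba-a1, Hba-a2 and Tmcc2). The part of such cells in the HSC differences was not tested.

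**Figure D2:**
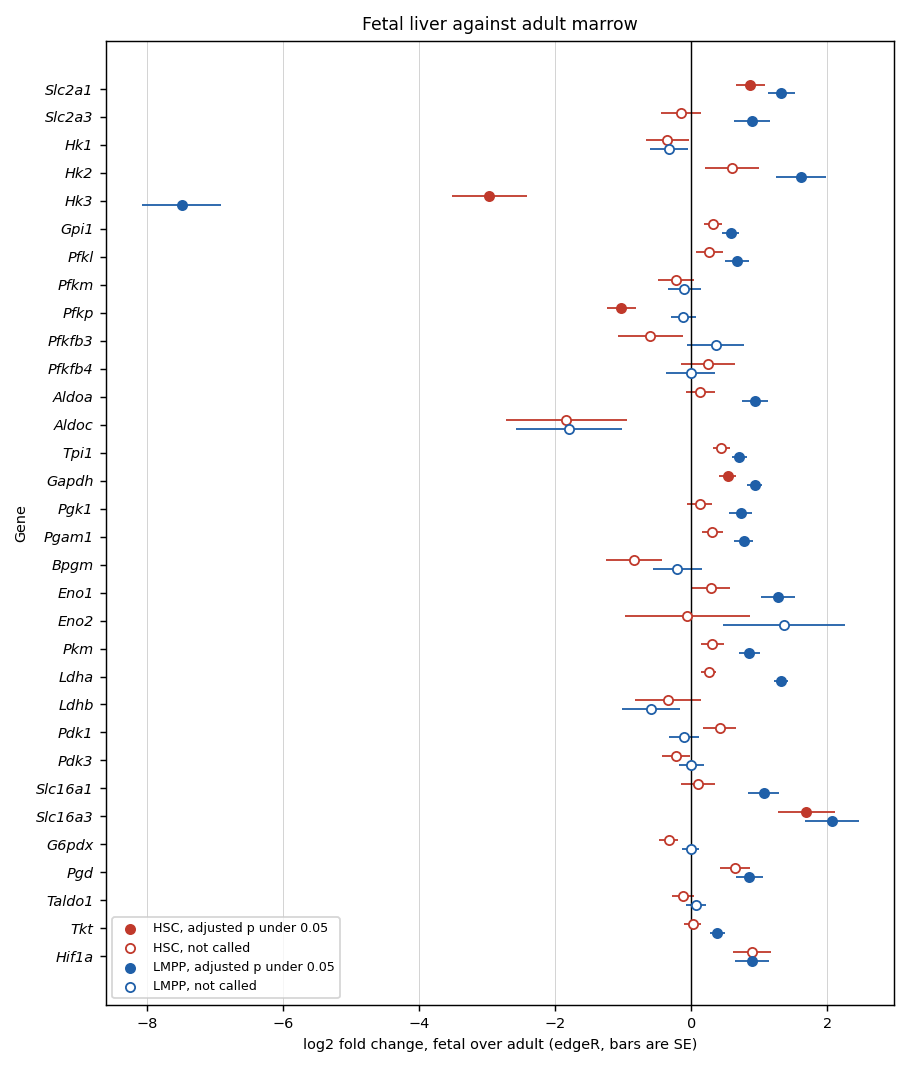
Log2 fold change of fetal over adult cells for each of the 32 genes (rows), in HSC (red) and LMPP (blue), with bars for 1 SE; filled points have an edgeR adjusted p under 0.05. In LMPP 18 filled points lie right of 0 and Hk3 lies far left at -7.50, while HSC have 3 filled points to the right and 2 to the left.

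The difference between these age effects was tested as an interaction, the fetal over adult change in LMPP minus that in HSC. It was called for 2 of the 32 genes, Ldha upward and Hk3 downward, where 0.387% of all genes were called upward and 0.543% downward. For Ldha the age effect was larger in LMPP by 1.06 ± 0.15 on the log2 scale (adjusted p = 0.0131), and for Hk3 the fall was deeper in LMPP by -4.53 ± 0.69 (adjusted p = 0.0157). The other 17 genes called higher in LMPP were therefore not shown to respond differently in HSC. Without fetal HSC 1 or fetal HSC 2 the interaction of Ldha was no longer called (adjusted p = 0.063 and 0.115), nor was that of Hk3 (adjusted p = 0.0565 and 0.108), which also ended without adult LMPP 1 (adjusted p = 0.052). With the 3 libraries that stand apart left out, the interaction was called upward for 3 genes, with Eno1 and Slc16a1 beside Ldha.

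LMPP were also compared with HSC within each age. How these 2 comparisons differ is tested by the interaction above. In the fetal liver 11 genes were called higher in LMPP than in HSC and 2 lower, against 8.21% and 9.85% of all genes. The median log2 fold change of LMPP over HSC was 0.411 for the set and -0.08 for all genes there. In the adult marrow 4 genes were called higher in LMPP and 6 lower, against 7.76% and 9.33% of all genes, with a median of -0.188 for the set and -0.0529 for all genes. Libraries of LMPP and HSC did not overlap for 16 genes that were higher and 8 that were lower in fetal LMPP, where 27.6% and 33.3% of all genes did not overlap. In the adult marrow these were 8 and 9 genes, where 13.7% and 18.1% of all genes did not overlap. Leaving out the 3 libraries that stand apart gave calls of 15 higher and 7 lower in the fetal liver, and 8 higher and 8 lower in the adult marrow. Scaling by library totals in place of TMM moved the median of all genes in the fetal liver to -0.327 and that of the set to 0.157, and left 5 genes called higher and 5 lower in LMPP. The calls of Gpi1, Tpi1, Pkm, Slc16a1, G6pdx and Tkt ended there (adjusted p = 0.0633 to 0.285). The 4 comparisons share libraries, so their values are set side by side below and not correlated.

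**Figure D3:**
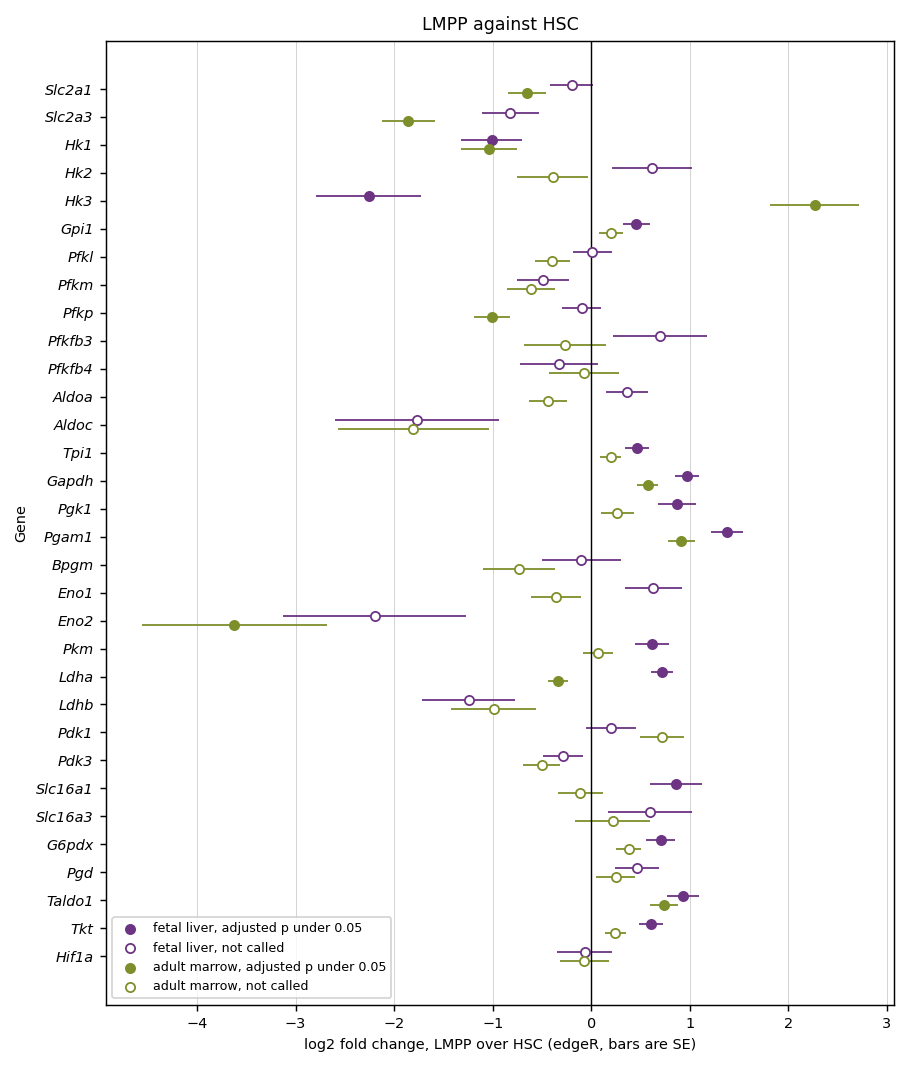
Log2 fold change of LMPP over HSC for each of the 32 genes (rows), in the fetal liver (purple) and in the adult marrow (olive), with bars for 1 SE; filled points have an edgeR adjusted p under 0.05. In the fetal liver 11 filled points lie right of 0 and 2 left, and in the adult marrow 4 lie right and 6 left, with Hk3 on opposite sides.

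Start windows of the genes that moved most are shown with the letters that hypoxia-inducible factors are known to bind. The 5 genes printed beside Hk3 are those called at least 2-fold higher in fetal LMPP whose RefSeq start (GRCm38.p6) is also the start used in the count table, and Hk3 is the gene called lower. Slc16a3 met the first condition only, its RefSeq start lying 583 bases from the table's. Each window of 300 bases runs from 250 bases before the start to 50 after it, 5′ to 3′ on the gene's own strand. Capitals mark ACGTG or GCGTG on either strand, where CACGTG, the E-box bound by MYC and related factors, also counts as ACGTG.
Slc2a1, chr4:119108495-119108794, plus strand: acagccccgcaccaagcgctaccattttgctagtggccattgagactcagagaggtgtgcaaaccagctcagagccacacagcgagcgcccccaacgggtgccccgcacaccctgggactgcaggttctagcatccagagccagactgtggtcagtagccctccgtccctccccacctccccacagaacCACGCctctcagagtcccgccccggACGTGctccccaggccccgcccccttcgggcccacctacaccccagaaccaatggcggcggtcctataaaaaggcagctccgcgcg
Hk2, chr6:82774405-82774704, minus strand: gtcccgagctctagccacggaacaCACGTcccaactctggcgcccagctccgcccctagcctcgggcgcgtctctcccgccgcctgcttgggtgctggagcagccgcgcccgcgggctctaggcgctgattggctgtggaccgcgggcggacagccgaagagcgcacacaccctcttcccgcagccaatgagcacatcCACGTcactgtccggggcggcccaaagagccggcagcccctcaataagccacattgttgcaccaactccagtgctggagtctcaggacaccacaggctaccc
Hk3, chr13:55021336-55021635, minus strand: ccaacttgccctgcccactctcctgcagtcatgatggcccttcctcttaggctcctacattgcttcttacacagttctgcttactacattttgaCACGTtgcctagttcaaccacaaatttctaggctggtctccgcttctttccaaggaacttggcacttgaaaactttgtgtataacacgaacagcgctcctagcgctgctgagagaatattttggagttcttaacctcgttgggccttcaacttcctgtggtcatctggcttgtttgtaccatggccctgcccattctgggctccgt
Eno1, chr4:150236947-150237246, plus strand: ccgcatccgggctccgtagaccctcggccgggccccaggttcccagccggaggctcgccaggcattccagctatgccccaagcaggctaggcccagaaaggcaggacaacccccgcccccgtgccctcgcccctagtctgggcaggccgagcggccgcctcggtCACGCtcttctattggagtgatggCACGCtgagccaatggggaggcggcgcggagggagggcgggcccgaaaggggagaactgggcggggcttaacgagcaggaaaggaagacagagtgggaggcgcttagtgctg
Ldha, chr7:46845554-46845853, plus strand: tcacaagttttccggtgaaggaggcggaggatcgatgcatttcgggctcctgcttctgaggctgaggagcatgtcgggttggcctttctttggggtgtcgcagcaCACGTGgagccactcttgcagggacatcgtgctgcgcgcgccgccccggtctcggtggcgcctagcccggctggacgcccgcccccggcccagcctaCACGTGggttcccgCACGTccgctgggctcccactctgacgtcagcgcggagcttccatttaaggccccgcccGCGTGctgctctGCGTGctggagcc
Slc16a1, chr3:104638414-104638713, plus strand: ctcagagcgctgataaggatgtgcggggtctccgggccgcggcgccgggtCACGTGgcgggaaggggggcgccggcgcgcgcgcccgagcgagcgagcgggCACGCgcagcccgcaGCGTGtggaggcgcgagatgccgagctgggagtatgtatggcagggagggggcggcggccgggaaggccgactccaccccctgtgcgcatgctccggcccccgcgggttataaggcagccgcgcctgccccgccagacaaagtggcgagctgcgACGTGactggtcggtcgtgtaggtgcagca
In the Ldha window ACGTG was found 5 times and GCGTG 2 times, counting both strands, and 2 of the stretches were CACGTG. These are 7 matches, which run together into 5 capital stretches, and 0.301% of all 32851 RefSeq windows held at least as many matches. Slc16a1 had 5 matches, as 1.66% of windows did or exceeded. Slc2a1, Hk2 and Eno1 had 2 matches each, as 20.6% of windows did or exceeded, and Hk3 had 1. Of the set's 31 genes with a window (Slc2a3 had none), 26 (83.9%) held ACGTG or GCGTG, against 43.8% of all windows. ACGTG alone stood in 17 (54.8%) against 19.6%, GCGTG in 20 (64.5%) against 32.4%, and CACGTG in 4 (12.9%) against 7.15%. The set's windows had a median G+C content of 62.3%, against 52.7% for all windows, and the part of G+C content in these shares was not tested. All windows also include those of genes removed by the filter on low counts, which every gene of the set passed. A gene can also have more than 1 window there, while each gene of the set gave 1. The part of these differences in the shares was not tested. A match is a string of letters and not a measured binding site.

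Glucose transporters were the first step with a clear difference. Slc2a1 encodes GLUT1, the widespread basal glucose carrier (chr4:119108745-119137329, mm10). It stood at 85.9, 73.96 and 83.2 CPM in fetal LMPP 1 to 3, against 27.5, 36.7 and 32.9 CPM in adult LMPP 1 to 3, and every fetal LMPP library was more than 2-fold above every adult one (log2 1.32 ± 0.20, adjusted p = 0.00183). HSC held 83.4 and 103 CPM in fetal libraries, against 38.9, 54.9 and 58.8 CPM in adult ones (log2 0.87 ± 0.21, adjusted p = 0.0438). The groups did not overlap in either cell type. The HSC call ended without any 1 library other than adult HSC 3 (adjusted p = 0.051 to 0.358). Within the adult marrow Slc2a1 was lower in LMPP than in HSC (log2 -0.65 ± 0.20, adjusted p = 0.0432), a call that ended without any 1 library other than adult HSC 1 (adjusted p = 0.0534 to 0.148) and without the 3 libraries that stand apart (adjusted p = 0.0738). In the fetal liver the same difference was -0.20 ± 0.22 (adjusted p = 0.561).

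Slc2a3 encodes GLUT3, a carrier of high affinity. It was at 81.5, 71.4 and 82.9 CPM in fetal LMPP, against 36.7, 61.8 and 28.7 CPM in adult LMPP (log2 0.89 ± 0.26, adjusted p = 0.0461). Adult HSC held the most, at 175, 169 and 117 CPM, and fetal HSC held 133 and 145 CPM, so the HSC groups overlapped. LMPP stood below HSC in the adult marrow without overlap (log2 -1.86 ± 0.27, adjusted p = 0.00115), and the fetal difference of -0.82 ± 0.29 was not called (adjusted p = 0.0744). The age call in LMPP ended without any 1 library other than adult LMPP 2 and adult HSC 3 (adjusted p = 0.0583 to 0.153). Set per length, Slc2a1 made up 61.4% ± 0.6 of the RNA of both carriers in fetal LMPP and 55.1% ± 8.11 in adult LMPP, and 50.7% ± 2.23 in fetal HSC and 34.2% ± 9.08 in adult HSC (SD).

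Hexokinases showed the widest swing of the set. Hk3, a hexokinase best known from myeloid cells (chr13:55005985-55021385), stood at 1.06, 0.148 and 0.298 CPM in fetal LMPP, against 113, 106 and 85.5 CPM in adult LMPP. In counts the fetal LMPP libraries held 59.5, 4 and 7, and the adult ones 2242.5, 3779 and 2610. The fitted difference was -7.50 ± 0.58 on the log2 scale (adjusted p = 3.81e-05), and -8.85 without fetal LMPP 1, the highest of the fetal libraries. In HSC it was 2.50 and 2.85 CPM in fetal libraries, against 18.8, 17.9 and 26.6 CPM in adult ones (log2 -2.97 ± 0.55, adjusted p = 0.0113). The age groups were far apart in both cell types, and the order of cell types turned with age: Hk3 was higher in LMPP than in HSC in the adult marrow (log2 2.27 ± 0.45, adjusted p = 0.00634) and lower in the fetal liver (log2 -2.26 ± 0.54, adjusted p = 0.0172). The fetal call ended without fetal HSC 1, fetal HSC 2 or fetal LMPP 3 (adjusted p = 0.063, 0.111 and 0.0501), and its value was -3.61 without fetal LMPP 1. The HSC age call ended without fetal HSC 1 or fetal HSC 2 (adjusted p = 0.137 and 0.131).

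Markers of myeloid cells also differed between the LMPP groups, in both directions. Summed RNA of 12 neutrophil and monocyte markers was 185 to 266 CPM in fetal LMPP and 284 to 331 CPM in adult LMPP, with 1 and 2 of them at 0. The means of 8 of these markers were higher in fetal LMPP and those of 3 lower, and Ltf and Mmp9 were called higher and Ms4a3 lower. The lower sum came from Ctsg, a granule protease of early myeloid cells, which averaged 11.4 CPM in fetal LMPP and 125 CPM in adult LMPP, and from Elane, at 1.65 CPM in fetal LMPP and 18.5 CPM in adult LMPP. The neutrophil gene Ly6g was at 0 in all libraries. Summed RNA of 10 macrophage markers was 68.9 to 160 CPM in fetal LMPP and 42.5 to 67.2 CPM in adult LMPP, with Cd163 and Vsig4 at 0 in fetal LMPP and Marco and Vsig4 at 0 in adult LMPP. Most of it was Csf1r, at 114 CPM in fetal LMPP and 32.8 CPM in adult LMPP, while the means of 6 of the 10 were lower in fetal LMPP, with C1qb and Cd163 called lower. The part of these cells, or of the CD11b gate that the adult sorts add, in the Hk3 difference was not tested. Hk3 overlaps Unc5a on the opposite strand by 34 bases.

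Hk2, the inducible hexokinase of growing cells, moved opposite to Hk3. It stood at 25.0, 33.9 and 42.2 CPM in fetal LMPP, against 8.64, 16.8 and 7.60 CPM in adult LMPP (log2 1.61 ± 0.37, adjusted p = 0.0154). These groups did not overlap, and the call ended without adult LMPP 1 (adjusted p = 0.0678) or fetal LMPP 3 (adjusted p = 0.0552). HSC held 18.3 and 25.6 CPM in fetal libraries, against 10.9, 20.1 and 12.4 CPM in adult ones, with overlap. Hk1, the housekeeping hexokinase, differed by cell type and was not called by age. It was at 125, 136 and 167 CPM in fetal LMPP, against 283 and 290 CPM in fetal HSC (log2 -1.01 ± 0.31, adjusted p = 0.0466). In the adult marrow it was at 188, 231 and 117 CPM in LMPP, against 461, 404 and 233 CPM in HSC (log2 -1.03 ± 0.28, adjusted p = 0.0303). The fetal call ended without any 1 library of the fetal groups, adult HSC 2 or adult LMPP 1 (adjusted p = 0.0618 to 0.204), and the adult call without adult HSC 1, adult HSC 2, adult LMPP 1 or adult LMPP 3 (adjusted p = 0.0795 to 0.11).

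The make-up of the hexokinase pool, per length, followed from these levels. Hk3 was 0.419% ± 0.457 of it in fetal LMPP and 42.1% ± 5.75 in adult LMPP, while Hk2 was 14.9% ± 1.67 in fetal LMPP and 2.56% ± 0.714 in adult LMPP. Hk1 made up 84.7% ± 1.21 in fetal LMPP and 55.3% ± 5.27 in adult LMPP. In HSC the Hk1 share was 93.5% ± 1.19 in fetal and 89.7% ± 4.83 in adult libraries, and the Hk3 share 1.13% ± 0.0739 in fetal and 7.53% ± 4.23 in adult ones. Adult LMPP were thus the population whose pool held most Hk3.

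**Figure D4:**
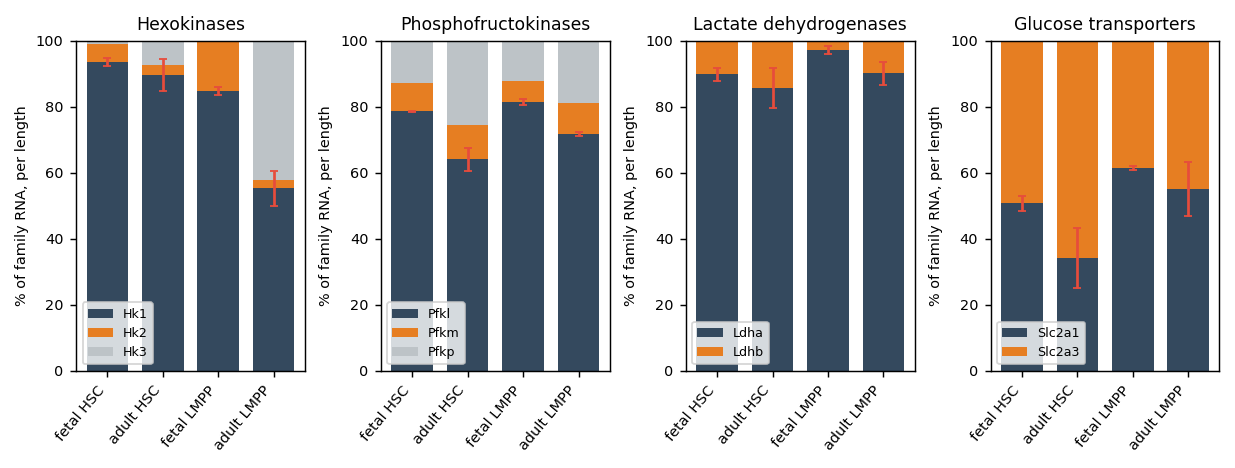
Share of each family's RNA, per length, held by each member (stacked bars, mean over libraries, percent), in fetal HSC, adult HSC, fetal LMPP and adult LMPP; red bars are the SD of the lowest segment. Hk3 takes 42.1% of the hexokinase bar in adult LMPP and 0.419% in fetal LMPP.

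Upper glycolysis turns glucose 6-phosphate into triose phosphates. Of its 9 genes, 4 were called higher in fetal than in adult LMPP. Gpi1, the isomerase after hexokinase, was at 534, 467 and 468 CPM in fetal LMPP, against 294, 365 and 323 CPM in adult LMPP (log2 0.58 ± 0.12, adjusted p = 0.0115). Pfkl, the liver-type phosphofructokinase of the first committed step, was at 509, 415 and 413 CPM, against 252, 318 and 267 CPM in adult LMPP (log2 0.68 ± 0.18, adjusted p = 0.0278). Neither gene overlapped between the groups. Aldoa, the main aldolase, was at 988, 853 and 749 CPM in fetal LMPP, against 399, 463 and 491 CPM in adult LMPP (log2 0.94 ± 0.19, adjusted p = 0.00924). Tpi1, which interconverts the triose phosphates, was at 849, 793 and 772 CPM in fetal LMPP, against 461, 503 and 513 CPM in adult LMPP (log2 0.71 ± 0.11, adjusted p = 0.00208). The calls of Aldoa and Tpi1 held in all 20 alternatives. That of Gpi1 ended without adult LMPP 1 (adjusted p = 0.0533), and that of Pfkl without any 1 LMPP library other than adult LMPP 2 (adjusted p = 0.0524 to 0.0999).

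Between fetal and adult HSC the fitted differences of these 4 genes were 0.13 to 0.44 on the log2 scale. Tpi1 was nearest to a call, at 564 and 605 CPM in fetal HSC, against 395, 436 and 459 CPM in adult HSC (adjusted p = 0.0662). Within the fetal liver Gpi1 was higher in LMPP than in HSC, where it was at 334 and 378 CPM (log2 0.46 ± 0.14, adjusted p = 0.0463), and so was Tpi1 (log2 0.46 ± 0.12, adjusted p = 0.0275). Without any 1 library of the fetal groups the Tpi1 call ended (adjusted p = 0.0513 to 0.177). That of Gpi1 ended without any 1 library other than adult HSC 3 and adult LMPP 2 (adjusted p = 0.0508 to 0.264). With library totals both differences were 0.21 and not called (adjusted p = 0.17 for Tpi1 and 0.285 for Gpi1). Tpi1 overlaps Spsb2 on the opposite strand by 25 bases.

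Pfkp, the platelet-type phosphofructokinase, set adult HSC apart. It was at 79.6 and 76.8 CPM in fetal HSC, against 155, 132 and 191 CPM in the adult HSC libraries (log2 -1.03 ± 0.21, adjusted p = 0.0174). Adult LMPP held 67.7, 85.4 and 84.6 CPM, below all adult HSC libraries (log2 -1.01 ± 0.18, adjusted p = 0.00395), and fetal LMPP held 82.2, 76.1 and 61.0 CPM. The level in adult HSC thus lay above the libraries of all other groups. The age call ended without fetal HSC 1 (adjusted p = 0.14) or fetal HSC 2 (adjusted p = 0.179), and when only the HSC groups were fitted (adjusted p = 0.0662). Pfkp overlaps Pitrm1 on the opposite strand by 276 bases. Pfkl made up 81.4% ± 0.984 of phosphofructokinase RNA per length in fetal LMPP and 71.7% ± 0.535 in adult LMPP, and 78.6% ± 0.177 in fetal HSC and 64% ± 3.4 in adult HSC.

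The other 4 genes of upper glycolysis were called in none of the comparisons. Pfkm, the muscle-type phosphofructokinase, ran from 19.4 to 50.2 CPM. Pfkfb3 and Pfkfb4, which make the phosphofructokinase activator fructose 2,6-bisphosphate, ran from 5.73 to 19.4 CPM and from 6.19 to 16.8 CPM. Aldoc, an aldolase best known from brain, was at 5.12, 0.148 and 2.53 CPM in fetal LMPP, against 5.86, 11.6 and 10.1 CPM in adult LMPP, and at 5.96 and 12.1 CPM in fetal HSC, against 25.5, 33.4 and 37.8 CPM in adult HSC. Fetal libraries lay below adult ones in both cell types, but the spread was wide (log2 -1.80 ± 0.78 in LMPP, adjusted p = 0.147, and -1.84 ± 0.89 in HSC, adjusted p = 0.307).

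Lower glycolysis runs from glyceraldehyde 3-phosphate to pyruvate, and 5 of its 7 genes were called higher in fetal than in adult LMPP. Gapdh, the dehydrogenase that yields NADH, was at 1391, 1451 and 1320 CPM in fetal LMPP, against 736, 770 and 674 CPM in adult LMPP (log2 0.93 ± 0.11, adjusted p = 0.000494). HSC held 662 and 751 CPM in fetal libraries, against 494, 512 and 459 CPM in adult ones (log2 0.53 ± 0.12, adjusted p = 0.0295). Gapdh also rose in LMPP over HSC at both ages, by 0.97 ± 0.13 in the fetal liver (adjusted p = 0.00102) and 0.57 ± 0.11 in the adult marrow (adjusted p = 0.00515). It was the one gene of the set called higher in all 4 comparisons. The HSC age call ended without fetal HSC 1, fetal HSC 2, adult HSC 1, adult HSC 2, fetal LMPP 3 or adult LMPP 1 (adjusted p = 0.0506 to 0.298).

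Pgk1, the first ATP-making kinase of the pathway, was at 550, 466 and 436 CPM in fetal LMPP, against 275, 274 and 326 CPM in adult LMPP (log2 0.73 ± 0.17, adjusted p = 0.0157). It was at 281 and 249 CPM in fetal HSC, below fetal LMPP (log2 0.87 ± 0.19, adjusted p = 0.0128), and at 215, 211 and 303 CPM in adult HSC. Pgam1, phosphoglycerate mutase, was at 895, 809 and 771 CPM in fetal LMPP, against 472, 470 and 509 CPM in adult LMPP (log2 0.77 ± 0.14, adjusted p = 0.00492). Both genes had their highest libraries in fetal LMPP, without overlap with any other group. Pgam1 was at 331 and 305 CPM in fetal HSC and 218, 246 and 306 CPM in adult HSC, and was higher in LMPP at both ages (log2 1.38 ± 0.16 in the fetal liver, adjusted p = 0.000723, and 0.91 ± 0.14 in the adult marrow, adjusted p = 0.00148). For Pgk1 the age call ended without adult LMPP 1, adult LMPP 2 or fetal LMPP 1 (adjusted p = 0.0611, 0.0555 and 0.0503), and the fetal cell-type call without fetal HSC 1 or fetal HSC 2 (adjusted p = 0.0615 and 0.132).

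Pkm, the pyruvate kinase of dividing cells, was at 2335, 1946 and 1891 CPM in fetal LMPP, against 1031, 1158 and 1219 CPM in adult LMPP (log2 0.86 ± 0.15, adjusted p = 0.00453). In fetal HSC it was at 1287 and 1391 CPM, below fetal LMPP (log2 0.62 ± 0.17, adjusted p = 0.0321), and in adult HSC at 945, 979 and 1319 CPM. The cell-type call ended without fetal HSC 1, fetal HSC 2, fetal LMPP 1 or fetal LMPP 2 (adjusted p = 0.178, 0.147, 0.0831 and 0.0635). Gene counts do not separate its M1 and M2 splice forms. Eno1, the main enolase, was at 2440, 1948 and 1729 CPM in fetal LMPP, against 701, 751 and 1072 CPM in adult LMPP (log2 1.28 ± 0.26, adjusted p = 0.00835). In HSC the groups overlapped, at 1341 and 1293 CPM in fetal and 937, 777 and 1525 CPM in adult libraries, the highest being adult HSC 3. A near copy, Eno1b, took 38.4% to 39.3% of the summed counts of both genes in every library, so how reads were shared between the copies is uncertain. Their sum averaged 3342 ± 613 CPM in fetal LMPP and 1375 ± 335 CPM in adult LMPP (SD, n = 3 each), and Eno1b alone differed by 1.29 ± 0.27 (adjusted p = 0.00995).

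Eno2, the neuron-type enolase, was called lower in adult LMPP than in adult HSC. It was at 0, 0.224 and 0.491 CPM in adult LMPP, against 2.96, 4.80 and 1.495 CPM in the adult HSC libraries (log2 -3.62 ± 0.94, adjusted p = 0.0237). In the fetal liver it was at 0.320, 0.647 and 0.978 CPM in LMPP, against 2.50 and 3.43 CPM in HSC (log2 -2.20 ± 0.93, adjusted p = 0.126). LMPP libraries lay below HSC libraries at both ages, at levels of 0 to 15 counts in adult LMPP and 17.5 to 23 in fetal LMPP. The adult call ended without adult HSC 1, adult HSC 2 or adult LMPP 2 (adjusted p = 0.0547, 0.0816 and 0.0729), or with only the adult groups fitted (adjusted p = 0.0663). The value was -4.58 without adult LMPP 3 and -4.865 without the 3 libraries that stand apart. Bpgm, which makes 2,3-bisphosphoglycerate in red cells, was called in none of the comparisons and ran from 14.9 to 66.4 CPM. Its highest library was adult HSC 3.

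Lactate handling held the lowest adjusted p of the set. Ldha, the lactate dehydrogenase subunit that favours pyruvate to lactate (chr7:46845804-46855627), stood at 2909, 2753 and 2542 CPM in fetal LMPP, against 1059, 1122 and 1108 CPM in adult LMPP (log2 1.32 ± 0.10, adjusted p = 3.73e-05). In HSC it was at 1704 and 1621 CPM in fetal libraries, against 1428, 1300 and 1438 CPM in adult ones (log2 0.26 ± 0.11, adjusted p = 0.24). Fetal LMPP held more than fetal HSC (log2 0.72 ± 0.11, adjusted p = 0.00296), and adult LMPP less than adult HSC (log2 -0.34 ± 0.10, adjusted p = 0.0404). The groups thus ran, from high to low, fetal LMPP, fetal HSC, adult HSC and adult LMPP, with no overlap between any pair. Of the neighbours in that order, fetal and adult HSC were not called apart. The adult cell-type call ended with the replicate number as a block shared by all 4 groups (adjusted p = 0.059). Leaving out any 1 library other than adult HSC 2 and fetal LMPP 1 ended it too (adjusted p = 0.0527 to 0.129). It also ended with DESeq2's size factors in edgeR (adjusted p = 0.0549).

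**Figure D5:**
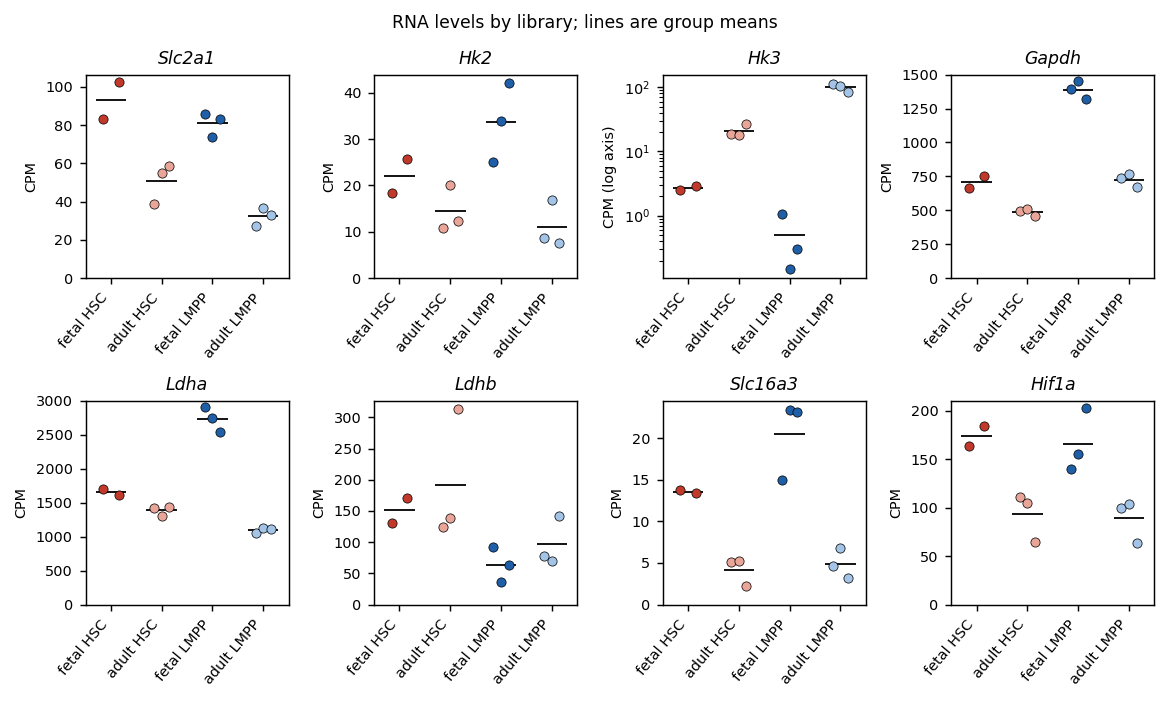
RNA level (CPM) of 8 genes in each library (points) of fetal HSC, adult HSC, fetal LMPP and adult LMPP, with group means as lines; the axis of Hk3 is logarithmic and the others start at 0. Fetal LMPP hold 2542 to 2909 CPM of Ldha and 0.148 to 1.06 CPM of Hk3, against 1059 to 1122 CPM and 85.5 to 113 CPM in adult LMPP.

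Ldhb, the subunit that favours lactate to pyruvate, was called in none of the comparisons. It was at 91.9, 36.5 and 63.4 CPM in fetal LMPP, against 78.2, 69.8 and 142 CPM in adult LMPP, and at 131 and 171 CPM in fetal HSC, against 125, 138 and 313 CPM in adult HSC. The highest library of each adult group was replicate 3, one of the 3 that stand apart. Ldha made up 97.2% ± 1.1 of the RNA of both subunits per length in fetal LMPP and 90.2% ± 3.49 in adult LMPP, and 89.8% ± 2.02 in fetal HSC and 85.7% ± 6.18 in adult HSC.

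The monocarboxylate transporters, which carry lactate across the membrane, were both called higher in fetal LMPP. Slc16a1, or MCT1, was at 250, 237 and 252 CPM in fetal LMPP, against 131, 139 and 81.1 CPM in adult LMPP (log2 1.07 ± 0.23, adjusted p = 0.0117). It was at 151 and 121 CPM in fetal HSC, below fetal LMPP (log2 0.86 ± 0.26, adjusted p = 0.0448), and at 159, 124 and 97.4 CPM in adult HSC. The fetal cell-type call ended without any 1 library of the fetal groups, adult HSC 2 or adult LMPP 1 (adjusted p = 0.0613 to 0.296). Slc16a3, or MCT4, the low-affinity exporter of glycolytic cells, was at 14.98, 23.4 and 23.1 CPM in fetal LMPP, against 4.65, 6.75 and 3.19 CPM in adult LMPP (log2 2.07 ± 0.39, adjusted p = 0.00626). In HSC it was at 13.8 and 13.4 CPM in fetal libraries, against 5.12, 5.22 and 2.27 CPM in adult ones (log2 1.70 ± 0.42, adjusted p = 0.0434). All fetal libraries lay above all adult ones for this gene, which held 12.9% ± 2.84 of the RNA of both transporters per length in fetal LMPP and 6.8% ± 1.03 in adult LMPP. The HSC call ended without any 1 library other than fetal LMPP 1, adult LMPP 2 and adult LMPP 3 (adjusted p = 0.0617 to 0.22).

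Pdk1 and Pdk3, kinases that keep pyruvate out of the citric acid cycle by inhibiting pyruvate dehydrogenase, were called in none of the comparisons. Pdk1 was at 173, 189 and 136 CPM in adult LMPP, against 118, 119 and 65.5 CPM in adult HSC, with no overlap (log2 0.72 ± 0.22, adjusted p = 0.0501). With the replicate number as a block shared by all 4 groups, Pdk1 was called (log2 0.75 ± 0.17, adjusted p = 0.021). Pdk3 ran from 109 to 224 CPM over all libraries.

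In the pentose phosphate pathway G6pdx, Taldo1 and Tkt were called higher in fetal LMPP than in fetal HSC. G6pdx, glucose 6-phosphate dehydrogenase, which opens the pathway and makes NADPH, was at 113, 118 and 112 CPM in fetal LMPP, against 67.8 and 73.0 CPM in fetal HSC (log2 0.70 ± 0.15, adjusted p = 0.00944). It was not called by age, with 123, 119 and 104 CPM in adult LMPP and 87.6, 95.4 and 82.7 CPM in adult HSC. Pgd, the dehydrogenase that follows, was at 148, 179 and 191 CPM in fetal LMPP, against 105, 109 and 72.4 CPM in adult LMPP (log2 0.86 ± 0.20, adjusted p = 0.0165), and at 119 and 131 CPM in fetal HSC, against 89.2, 88.5 and 63.1 CPM in adult HSC (adjusted p = 0.138). The Pgd groups overlapped in neither cell type, and its call ended without fetal LMPP 2 or fetal LMPP 3 (adjusted p = 0.0564 and 0.0604). That of G6pdx ended without fetal HSC 1 or fetal HSC 2 (adjusted p = 0.0878 and 0.0703).

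Taldo1, transaldolase of the non-oxidative arm, separated the cell types at both ages. It was at 415, 353 and 359 CPM in fetal LMPP, against 203 and 191 CPM in fetal HSC (log2 0.93 ± 0.16, adjusted p = 0.00443). In the adult marrow it was at 335, 348 and 389 CPM in LMPP, against 191, 195 and 254 CPM in HSC (log2 0.74 ± 0.14, adjusted p = 0.00538). The fetal call ended without fetal HSC 2 (adjusted p = 0.0599). Tkt, transketolase, was at 618, 641 and 641 CPM in fetal LMPP, against 501, 513 and 443 CPM in adult LMPP, a small difference without overlap (log2 0.38 ± 0.11, adjusted p = 0.0367). It was at 412 and 420 CPM in fetal HSC, below fetal LMPP (log2 0.61 ± 0.12, adjusted p = 0.00838), and at 440, 401 and 389 CPM in adult HSC. The age call ended without any 1 of the 6 LMPP libraries, fetal HSC 1 or fetal HSC 2 (adjusted p = 0.0591 to 0.109), and the cell-type call without fetal HSC 1 or fetal HSC 2 (adjusted p = 0.0708 and 0.0785).

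Hif1a encodes the oxygen-regulated subunit of HIF-1, which is controlled mainly by protein breakdown. Its RNA was at 140, 155 and 203 CPM in fetal LMPP, against 99.6, 104 and 63.9 CPM in adult LMPP (log2 0.90 ± 0.25, adjusted p = 0.0373). HSC held 163 and 185 CPM in fetal libraries, against 111.0, 105 and 64.6 CPM in adult ones (log2 0.89 ± 0.28, adjusted p = 0.103). All fetal libraries lay above all adult ones, with nearly the same fitted difference in both cell types (interaction 0.003 ± 0.376). The LMPP call ended without any 1 LMPP library other than fetal LMPP 1, and without fetal HSC 1 or fetal HSC 2 (adjusted p = 0.0537 to 0.125).

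In the order of levels per length, Ldha stood first in all 4 groups, at 1695 CPM per kb in fetal LMPP, 680 in adult LMPP, 1031 in fetal HSC and 861 in adult HSC. Eno1, Gapdh, Pkm, Aldoa and Tpi1 followed in fetal LMPP, between 505 and 1157 CPM per kb. Eno1 is ranked here without the reads given to its near copy Eno1b, so its place below Ldha is uncertain in all 4 groups. At the other end of the set lay Hk3 in fetal LMPP (0.157 CPM per kb) and Eno2 in adult LMPP (0.0857 CPM per kb). Hk1, the most abundant hexokinase, stood at 34.4 CPM per kb in fetal LMPP and 43.2 in adult LMPP.

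Genes of neighbouring pathways, from lists by role, were counted in the same fit, in which 7.08% of all genes were called higher and 8.29% lower in fetal LMPP. Of 26 tested genes listed with other glycolysis and gluconeogenesis steps, 1 was called higher in fetal LMPP and 4 lower, with a median log2 of 0.107. The 1 higher was Pgam5, which encodes a protein phosphatase and not a glycolytic enzyme. Among the 4, Fbp1, the fructose bisphosphatase of gluconeogenesis, averaged 1.40 CPM in fetal LMPP and 29.5 CPM in adult LMPP (log2 -4.38 ± 0.67, adjusted p = 0.00206), and Pck2, the mitochondrial PEP carboxykinase, 48.3 CPM in fetal LMPP and 110.8 CPM in adult LMPP (log2 -1.20 ± 0.19, adjusted p = 0.00216). Fbp1 was also lower in fetal HSC, at 0.796 CPM, against 14.7 CPM in its adult counterpart (log2 -4.20 ± 0.81, adjusted p = 0.0135). Of 13 genes of pyruvate entry 3 were higher and 1 lower in fetal LMPP. Pdha1 (log2 0.66 ± 0.11, adjusted p = 0.00358) and Dlat (log2 0.62 ± 0.14, adjusted p = 0.0132), both of the pyruvate dehydrogenase complex, led the first. Pdk2, a kinase that inhibits that complex, was the one lower (log2 -1.19 ± 0.21, adjusted p = 0.00406). The 22 genes listed with the citric acid cycle gave 5 calls upward and 1 downward in fetal LMPP, with a median log2 of 0.385. Fh1, fumarase, averaged 255 CPM in fetal LMPP and 147 CPM in adult LMPP (adjusted p = 0.00109), and Cs, citrate synthase, 352 CPM in fetal LMPP and 170 CPM in adult LMPP (adjusted p = 0.00152).

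Genes around HIF were counted against the same shares of all genes, which for HSC were 2.07% higher and 2.89% lower. These lists are short, so 1 or 2 calls are a large part of a list, and no list was tested as a set. Of 19 tested targets outside glycolysis, 3 were called higher in fetal LMPP and 3 lower, with a median log2 of 0.149. Ankrd37 averaged 11.9 CPM in fetal LMPP and 3.00 CPM in adult LMPP (log2 1.98 ± 0.37, adjusted p = 0.00596), and Ndrg1 5.37 CPM in fetal LMPP and 131 CPM in adult LMPP (log2 -4.59 ± 0.44, adjusted p = 0.00014). Both moved the same way in HSC (adjusted p = 0.0438 and 0.000603). Of 10 genes of the HIF system itself 1 was higher and 1 lower in fetal LMPP, and 2 were higher and 1 lower in fetal HSC. Hif3a, whose products can restrain HIF-1, averaged 7.79 CPM in fetal LMPP and 0.905 CPM in adult LMPP, and 38.9 CPM in fetal HSC and 2.41 CPM in adult HSC (adjusted p = 0.024 and 0.0191). Cited2, which competes with HIF-1 for its coactivator, was lower in both fetal groups (adjusted p = 0.0119 in LMPP and 0.0251 in HSC). Glycogen genes gave 2 lower of 18 in fetal LMPP (Pgm2l1 and Gbe1). The 10 other genes listed with the pentose phosphate pathway gave 1 lower in fetal LMPP (Shpk) and 1 lower in fetal HSC (Sord, sorbitol dehydrogenase).

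Open chromatin at the starts of these genes was nearly universal. ATAC-seq, in which a transposase tags accessible DNA, gave 1 list of reproducible peaks per group, made by the authors from 2 libraries each, so no region could be tested. A peak lay within 1000 bases of the start of 30 of the 32 genes in fetal HSC, 31 in adult HSC, 27 in fetal LMPP and 30 in adult LMPP. Over all 25124 genes of the count table these shares were 55%, 55.9%, 50.1% and 53.1%. That base includes genes removed by the filter on low counts, which all 32 genes passed. The part of RNA level in this difference was not tested. The fetal LMPP list was also the shortest, with 37156 distinct peaks against 48286 to 53068 in the others. Aldoc and G6pdx had a peak at the start in all lists but that of fetal LMPP, and Eno2 in the 2 HSC lists only. The windows printed above for Slc2a1, Hk2, Eno1, Ldha and Slc16a1 all lay at starts with a peak in all 4 lists.

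Hk3 had no peak at its start in any list. Its regions within 10000 bases of the gene were all from adult lists. In adult HSC they lay at chr13:55013786-55014029, inside the gene and centred 7478 bases after the start, and at chr13:55022728-55023196, upstream of it at -1577 bases. In adult LMPP 1 lay at chr13:55020120-55020369, inside the gene and 1141 bases after the start. The fetal lists held none, and the RNA was lower in both fetal groups. Slc16a3 went the other way: its start had a peak (chr11:120948342-120949242) in both adult lists and in neither fetal list, although its RNA was higher in both fetal groups. A second region, at chr11:120950566-120951318 inside the gene, was in all 4 lists. Over the set, 122 distinct regions lay within the genes and 10000 bases on either side, of which 54 were in all 4 lists, 7 in both adult lists only and 1 in both fetal lists only. In a single list were 4 of fetal HSC, 10 of adult HSC, 1 of fetal LMPP and 9 of adult LMPP. The same shares over all genes were not computed, and the fetal LMPP list was the shortest, so these counts are not a trait of the set.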

How the data were processed

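The authors' deposited table of raw exon counts per gene (mm10) was made with HOMER's analyzeRepeats, per the file headers, with no normalization. Libraries were made with the SMART-Seq v4 and Nextera XT kits, per the labels' protocols, which give no strand, so reads of genes that overlap on opposite strands cannot be told apart. Its values are expected counts in steps of 0.5 (22.5% of the deposited values end in 0.5), which were rounded to whole numbers for the tests. STAR, RSEM, DESeq2, Bowtie2 2.3.5, SAMtools 1.9, Picard and MACS2 are named in the submitters' processing notes, with no role given. Peak lists were kept by the authors at an IDR of 0.1 per group, per the labels. The deposited peak signal and −log10 q values are the peak caller's own and were used only to describe or filter peaks within a list. Pooling of replicates before the call is not stated.

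Counts were fitted in R 4.3.3 with edgeR 4.0.16 (filterByExpr, TMM, 1 mean for each of the 4 groups fitted to the 11 libraries, quasi-likelihood F test, Benjamini-Hochberg over 14720 genes, calls at an adjusted p under 0.05). Adjusted p-values are edgeR's unless another tool is named. CPM are TMM-scaled, and CPM per kb use the table's transcript length. Log2 fold changes are ± SE. The fit was tested on simulated counts, with 100 genes changed at each fold, drawn from all tested genes above a set mean CPM. Of 2-fold changes it called 13% between fetal and adult HSC and 12% between fetal and adult LMPP. Of 4-fold changes it called 73% and 82%. A gene that was not called can therefore still differ. More genes were called in the data, 1042 higher and 1221 lower in fetal LMPP, than were changed in the simulation. Their number affects the adjusted p, so these shares need not hold for the genes of the set. Alternatives were another scaling, filters, DESeq2 1.42.0, only the groups compared, a replicate block, each library left out and, added after seeing the data, the 3 libraries that stand apart left out or given a term, and library totals. A call "held in all 20 alternatives" refers to these.

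Replicate numbers were taken to pair libraries where all deviations of same-numbered libraries correlated over 0.1 across 3 pairs. This was so for adult LMPP against adult HSC (0.153, 0.306 and 0.472) and for no other comparison. Adult HSC 3 and adult LMPP 3, the pair at 0.472, both stand apart, so pairing and that difference cannot be told apart there. The block was fitted as replicate effects shared by all 4 groups, also by those whose libraries did not deviate together. Calls come from the fit without a block unless stated. Every gene of the set is named, by role, with the values of each library where it was called. The genes and lists were chosen with earlier results of these data known. Promoter windows are RefSeq's for GRCm38.p6. 31 of 32 genes matched by symbol.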

Additional observations from a re-analysis of the deposited data

Results flagged for a closer look

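The change between fetal and adult cells differed between LMPP and HSC for 2 genes, by the interaction test of edgeR over all genes. For Hk3 the fetal over adult change in LMPP minus that in HSC was -4.525 on the log2 scale (± 0.69, adjusted p = 0.0157), the fall being seen in all 3 fetal LMPP and both fetal HSC libraries. It was -5.88 without fetal LMPP 1. For Ldha it was 1.059 (± 0.15, adjusted p = 0.0131), with fetal LMPP libraries at 2542 to 2909 CPM and adult LMPP libraries at 1059 to 1122 CPM. DESeq2 called both (adjusted p = 2.02e-08 and 8.55e-09). Over the 19 alternatives that give an interaction, that of Ldha ranged from 0.92 to 1.11, and the adjusted p of edgeR from 0.000727 to 0.115. No other gene of the set was called in the fit of all libraries by edgeR. Leaving out adult HSC 3, fetal LMPP 1 and adult LMPP 3 together added Eno1 and Slc16a1, and giving these libraries a term of their own added both and Pfkp.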

How the results depend on the processing

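No call on a gene of the set turned its direction in the alternatives that gave it a value, which were 20 for most calls, 19 for Eno2 (left out by the stricter filter) and 19 for the interactions (no value with only the groups compared). Between fetal and adult LMPP, 11 of 19 calls held in all 20 (Slc2a1, Hk3, Aldoa, Tpi1, Gapdh, Pgam1, Eno1, Pkm, Ldha, Slc16a1 and Slc16a3), as did 6 of 10 for LMPP against HSC in the adult marrow, 3 of 13 in the fetal liver, and none of the 5 between fetal and adult HSC. For that HSC comparison the numbers called higher and lower were 5 higher with DESeq2, 0 and 1 when the HSC libraries were fitted alone, 1 and 1 with the replicate block, 11 and 4 without the 3 libraries that stand apart, and 10 higher with a term for them. In LMPP 3 were lower both without these libraries and with the term. In the adult marrow LMPP had 7 higher with DESeq2, 8 without the 3 libraries and 8 with the term, and 3 lower with only these groups and 12 with the term. In the fetal liver LMPP had 5 higher and 5 lower with library totals, and 4, 7 and 5 lower with DESeq2, without the 3 libraries and with the term. The interaction was called upward for 3 and 4 genes without them and with the term.

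Leaving out 1 library at a time gave 0 to 3 higher and 0 to 2 lower between fetal and adult HSC, 11 to 18 higher and 1 lower in LMPP, 4 to 5 higher and 3 to 5 lower in LMPP of the adult marrow, 3 to 12 higher and 0 to 4 lower in LMPP of the fetal liver, and 0 to 1 in each direction for the interaction. Same-numbered libraries did not deviate together between fetal and adult HSC (0.0602 and 0.0974), fetal and adult LMPP (-0.138, 0.0808 and -0.167) or fetal LMPP and HSC (-0.0159 and -0.0612). With the block, the fetal LMPP against HSC calls of Hk1, Gpi1, Tpi1 and Pkm ended and Ldhb was called lower. Fitting only the groups compared ended the calls of Slc2a1, Hk1, Eno2 and Ldha between adult LMPP and HSC (adjusted p = 0.0663 to 0.152) and of Hk3 between fetal LMPP and HSC (adjusted p = 0.0812). Testing without a filter ended those of Slc2a1 between fetal and adult HSC (adjusted p = 0.0524), Tkt between fetal and adult LMPP (adjusted p = 0.0567), Gpi1 between fetal LMPP and HSC (adjusted p = 0.0652), and Slc2a1 and Ldha between adult LMPP and HSC (adjusted p = 0.0526 and 0.0613). Gpi1 also ended with the stricter filter (adjusted p = 0.0538) and DESeq2's size factors (adjusted p = 0.0568), and Slc16a3 between fetal and adult HSC with library totals (adjusted p = 0.0666). Counts of open starts kept within 1 gene of the values given under other windows, the summit rule and a −log10 q of at least 5. Depth limits Hk3 in fetal LMPP and Eno2 in adult LMPP, at 4 to 59.5 and 0 to 15 counts.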
